A study of Mus musculus with 4 samples.

Results

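S-phase cells are here the unconventional αβ T cells (UTCαβ) of murine sarcomas whose transcripts are those of a cell copying its DNA. They were chosen by these measured values. In droplet RNA sequencing each captured transcript is counted once by its unique molecular identifier (UMI), and a cell was placed in S phase when the UMIs of Rrm2, Tk1, Esco2, Hist1h1b and 2810417H13Rik, summed and called S here, came to at least 4 and exceeded those of Ube2c, Cenpf, Ccnb2, Cdc20, Hmmr, Plk1 and Ccnb1, called M. Cells had at least 200 genes, at most 20000 UMIs, at most 10% mitochondrial UMIs and at least 1 UMI of Cd3e. By this rule 402 of 21342 cells (1.88%) were in S phase. They were compared with 19352 cells without a UMI of any of the 12 genes, called resting below, and with 145 cells in which M was at least 4 and exceeded S, called G2/M. The other 1443 cells lay between these states. A shallow cell can also show S and M of 0, so some resting cells may have been cycling.

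The UTCαβ, which carry an αβ receptor but lack CD4 and CD8, came from sarcomas that 3-methylcholanthrene (3-MCA), a carcinogen injected under the skin, had induced in male C57BL/6J mice. The sort kept CD45+ cells with TCRβ and without TCRγδ, CD11b, CD4 and CD8. The mice were Csf3r+/+ or carried a germline deletion of Csf3r (Csf3r-/-), the receptor for G-CSF, so every cell of the animal and not only neutrophils lacked it, and their age was not given in the sources used here. Each genotype had 2 libraries, 1 from each mouse. Csf3r+/+ libraries 1 and 2 held 2843 and 6458 cells within the limits, with medians of 3055 and 3026 UMIs per cell, and Csf3r-/- libraries 1 and 2 held 5215 and 6826 cells, with medians of 2239 and 1983. Library values below are given in this order. The number that separates the libraries of a genotype is not tied to an animal in the labels, and p-values measure the spread between these libraries. Csf3r+/+ library 1 stood apart in its S-phase share and Csf3r+/+ library 2 in its mixture of type 1 and type 3 cells, as given further below. Counts that rest on either are given without it, except between genotypes, where 1 library would be left. No barcode was shared between S-phase cells of different libraries.

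In S phase the helicase loaded on origins in G1 is activated, polymerases copy both strands behind it, ribonucleotide reductase and thymidylate synthase supply deoxynucleotides, and new histones are made to package the copy. E2F transcription factors switch on many of these genes at the end of G1, and a later wave of genes, controlled through a different promoter element, prepares the cell for mitosis. T cells divide in bursts after stimulation through the T cell receptor and cytokines, and resting T cells keep Klf2, Il7r and Cdkn1b high.

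The genes of the rule describe the members and were not tested. In the 4 libraries, S-phase cells held Rrm2, a subunit of ribonucleotide reductase, at 706, 424, 606 and 491 CPM, the gene's UMIs per 1000000 UMIs of the same cells. 2810417H13Rik, a partner of the PCNA clamp, was at 1417, 898, 1463 and 1284 CPM. Of the 5 S genes these were the most widely seen in S-phase cells, and Esco2, which joins sister chromatids, and the linker histone gene Hist1h1b were seen in fewer than 1 cell in 2. Ube2c, an M gene, was at 228, 107, 186 and 200 CPM in S-phase cells and at 1426, 908, 663 and 1276 CPM in G2/M cells. The median S was 14, with quartiles of 9 and 22 and a maximum of 56. Just inside the limit, the 23 cells with S of 4 held the genes of 2 replication lists, the MCM helicase list and the polymerase list described below, at 4753 CPM. Just outside it, the 49 cells with S of 3 and a lower M held them at 5303 CPM, beside 6151 CPM in all S-phase cells and 1257 CPM in resting cells. At the other edge, 12 S-phase cells had M 1 below S, and 7 cells with S equal to M, at 4 or more, were left out. Cd3e, a chain of the T cell receptor complex on which the rule also drew, was at 510, 241, 459 and 477 CPM in S-phase cells and at 752, 455, 812 and 812 CPM in resting cells.

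S-phase cells made up 4.57% of cells (95% exact interval 3.83 to 5.41) in Csf3r+/+ library 1 and 1.39% (1.12 to 1.71) in Csf3r+/+ library 2, that is 130 and 90 cells. In the Csf3r-/- libraries they made up 1.96% (1.60 to 2.37) and 1.17% (0.930 to 1.46), 102 and 80 cells. Intervals cover counting error only. The share was highest in Csf3r+/+ library 1, and the other Csf3r+/+ library lay between the Csf3r-/- libraries, so the genotypes overlapped. Csf3r-/- libraries averaged 1.56% ± 0.554 (SD, n = 2) and Csf3r+/+ libraries 2.98% ± 2.25, a difference of -1.42 percentage points (two-sided exact permutation p = 0.667, and no p below 0.33 is possible with these numbers). Without Csf3r+/+ library 1 the difference was 0.170 percentage points, the other way. For every G2/M cell there were 2.45, 3.33, 2.91 and 2.67 S-phase cells. S-phase cells were deep, with medians of 6374, 8573.5, 5247 and 4865 UMIs against 2913, 2951.5, 2186 and 1956 in resting cells. A deep cell reaches the rule's 4 UMIs of the S genes more easily, and the part of the rule in that gap was not tested. Among cells of 3000 to 8000 UMIs the shares were 5.996%, 1.34%, 5.15% and 4.94%, so that Csf3r+/+ library 2 was lowest and the difference turned to 1.38 percentage points, with the genotypes still overlapping.

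**Figure D1:**
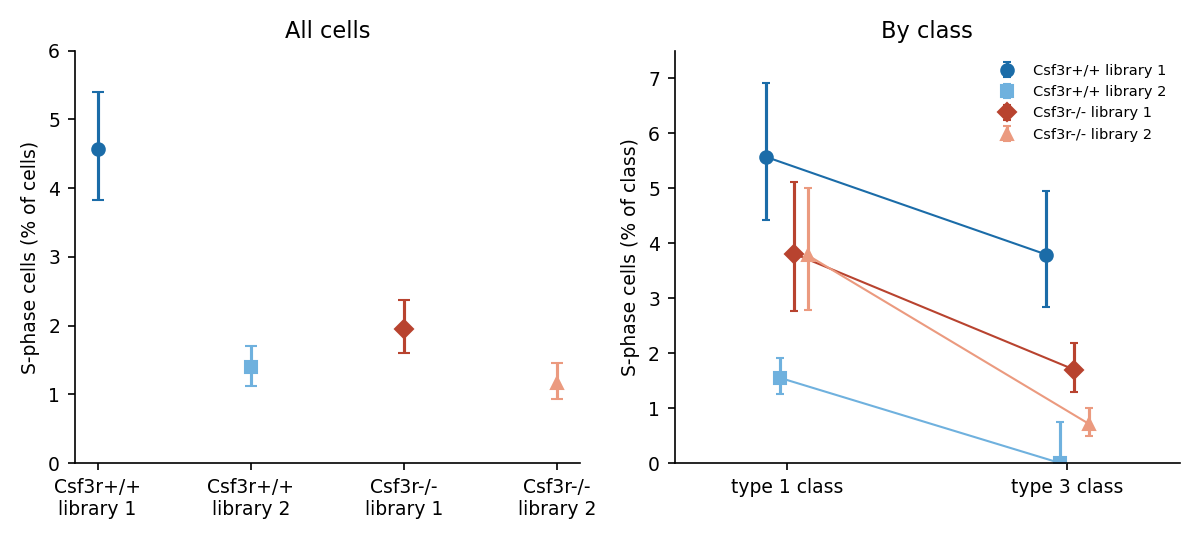
Share of S-phase cells in each library (percent of cells within the limits, with 95% exact intervals), and in each library's type 1 and type 3 cells. Csf3r+/+ library 1 stands highest at 4.57%, and the type 1 point lies above the type 3 point in 4 of 4 libraries.

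Which polarised cells the S-phase cells came from was asked by classing each cell with at least 1500 UMIs, after thinning to that depth, by whether 16 type 1 genes (such as Ifng, Gzmb and Tbx21) or 16 type 3 genes (such as Il17a, Icos and Zbtb16) had more UMIs. Of type 1 cells, 5.57%, 1.55%, 3.81% and 3.78% were in S phase. Of type 3 cells, 3.79%, 0%, 1.70% and 0.719% were, and the 0 of 488 type 3 cells in Csf3r+/+ library 2 allows a share of up to 0.753% (upper exact bound). The share was higher in type 1 cells in 4 of 4 libraries, by 2.13 percentage points on average (SD 0.664, n = 4; two-sided exact permutation test by sign flips, p = 0.13, the smallest it allows). Type 1 cells thus made up 60.0%, 100%, 41.2% and 58.2% of S-phase cells with at least 1500 UMIs. They made up 50.4%, 91.8%, 23.6% and 20.8% of all cells with at least 1500 UMIs, classed or not. Type 1 cells were also deeper, with medians of 3517, 3195.5, 2942 and 2749 UMIs against 2790, 2200.5, 2217 and 1996 in type 3 cells. Among cells of 3000 to 8000 UMIs the difference was 1.2 percentage points (exact permutation p = 0.5), and there Csf3r+/+ library 1 turned, with 5.23% of type 1 and 7.25% of type 3 cells in S phase. With every cell thinned to 1500 UMIs and S of at least 2 it was 1.39 percentage points, higher in type 1 cells in 4 of 4 libraries.

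Against resting cells of the same libraries, 1545 of 10366 genes were higher in S-phase cells (14.9% of those tested) and 1699 were lower (16.4%), at an adjusted p under 0.05 in edgeR's quasi-likelihood test on UMIs summed per library and state, with the library as a block. The median log2 fold change of all genes was -0.11. By DESeq2 2353 genes were called, 58.7% of them higher, against 47.6% by edgeR. The rule's 12 genes and Cd3e were left out of the test. Genes that move with the cell cycle are still not independent of the rule, so their differences describe the state that was picked and are not support for it. A gene entered the test only with enough UMIs in at least 1 state, so a member that entered through its high state had to differ, and list counts below are of the members tested.

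Helicase and origin genes were higher in S-phase cells. Of 27 genes of the MCM helicase and its loaders, all tested, 25 were higher and none lower, with a median log2 fold change of 2.54. Mcm5, a subunit of the helicase ring (chr8:75109569-75128439, plus strand, GRCm38), was at 307, 187, 303 and 257 CPM in S-phase cells and at 36.2, 20.2, 25 and 21.6 CPM in resting cells. Every S-phase value lay above every resting value, with a log2 fold change of 3.30 ± 0.12 (SE; adjusted p = 1.7e-13, edgeR). Cdc45, which turns the loaded ring into an active helicase, was at 104, 71.5, 95.4 and 79.5 CPM against 3.08, 1.89, 3.17 and 2.02 CPM, and Cdc6, a loader of the ring, had the larger fold change of 5.88 ± 0.28, from resting levels near 1 CPM.

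All 29 genes of polymerases, clamp and fork proteins were tested and all were higher (median log2 fold change 2.64). Pcna, the sliding clamp (chr2:132249162-132253314, minus strand), was at 312, 243, 241 and 193 CPM in S-phase cells and at 40.2, 38.8, 30.5 and 31.7 CPM in resting cells (log2 fold change 2.74 ± 0.11). Clspn, the fork-bound mediator of the replication checkpoint, was at 142, 96.6, 149 and 130 CPM in S-phase cells and at most 3.01 CPM in resting cells (5.86 ± 0.17). For both genes no S-phase value came near a resting one.

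Of 22 genes of dNTP synthesis, 20 were higher and 1 lower (median 1.52). Tyms, thymidylate synthase (chr5:30058202-30073617, minus strand), was at 426, 271, 351 and 366 CPM against 16.0, 11.4, 17.8 and 14.5 CPM in resting cells, a log2 fold change of 4.50 ± 0.11 (adjusted p = 8.5e-16, edgeR). Rrm1, the large subunit of ribonucleotide reductase, had a log2 fold change of 3.65 ± 0.12 and Dut, which keeps uracil out of DNA, 3.20 ± 0.10. Csf3r+/+ library 2 held the lowest S-phase level of Tyms, as it did for Mcm5.

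**Figure D2:**
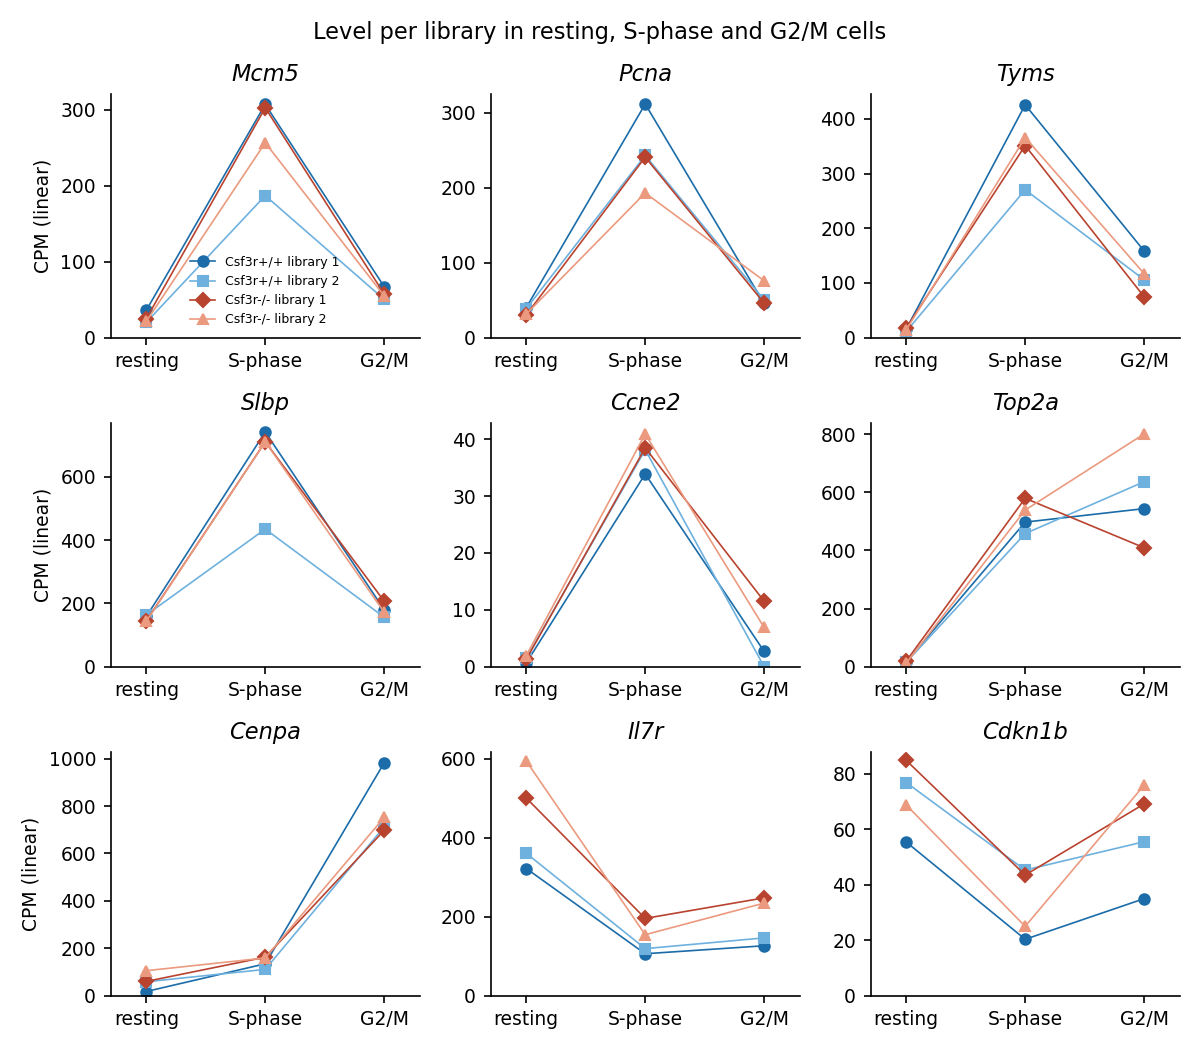
Levels of 9 genes (CPM of summed UMIs, linear axes) in resting, S-phase and G2/M cells, 1 point for each of the 4 libraries. Mcm5, Pcna, Tyms, Slbp and Ccne2 are highest in S-phase cells, Top2a is high in both cycling states, Cenpa is highest in G2/M cells, and Il7r and Cdkn1b are highest in resting cells.

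Histone transcripts were counted although these libraries are primed on poly(A), which most replication-dependent histone mRNAs lack, and near-identical histone copies make the value of any single gene uncertain. The list of 47 replication-dependent histone genes also holds Slbp, which is not a histone. Of its 33 genes tested 30 were higher and none lower (median log2 fold change 3.95), and without Slbp, a trim made after the values were seen, these were 29 of 32. Summed over the histones alone, S-phase cells held 1329, 933, 817 and 949.8 CPM and resting cells 349, 181, 140 and 274 CPM. Slbp, the protein that binds the stem-loop at the end of these mRNAs, was at 742, 435, 711 and 711 CPM in S-phase cells and at 159, 163, 145 and 144 CPM in resting cells (log2 fold change 2.00 ± 0.13). Of the 18 genes of chromatin assembly and DNA methylation all were higher (median 1.96). Among them Asf1b, a chaperone of new histones, had a log2 fold change of 5.10 ± 0.13, and Uhrf1, which brings the maintenance methyltransferase to new DNA, 4.62 ± 0.18. Of 25 genes of DNA repair and its checkpoint 23 were higher and 1 lower (median 3.12).

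Regulators of entry into S phase and genes of later phases were high together. Of 21 G1/S regulators 16 were higher and 1 lower (median 1.71). Ccne2, a cyclin that drives Cdk2 into S phase, was at 33.9, 38.1, 38.5 and 40.9 CPM in S-phase cells and at 0.671, 1.5, 1.3 and 1.95 CPM in resting cells. Ccne1, the related cyclin, was at 52.0 and 45.3 CPM in S-phase cells of the Csf3r+/+ libraries and at 16.7 and 11.4 CPM in those of the Csf3r-/- libraries, and the resting cells showed the same order at 3.89, 3.0, 0.813 and 0.487 CPM. Of 55 G2 and mitosis genes outside the rule, 54 were higher than in resting cells (median 5.21), and 1 was lower. Top2a, which untangles DNA, was at 497, 458, 579 and 539 CPM against 16.0, 15.1, 19.5 and 12.5 CPM, and Mki67, the proliferation antigen, at 203, 190, 249 and 209 CPM against 4.29, 1.26, 8.30 and 5.36 CPM.

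The list of quiescence and cell cycle exit genes, which also holds Fos, Jun, Dusp1 and Zfp36, induced early on stimulation, had 20 of 32 genes lower in S-phase cells and 1, Cdkn1a, higher (median log2 fold change -0.68). Those 4 were among the genes lower, and of the other 28 genes 16 were lower. Il7r, the IL-7 receptor chain (chr15:9505788-9530176, minus strand), was at 106, 119, 196 and 155 CPM in S-phase cells and at 322, 361, 501 and 594 CPM in resting cells. The ranges did not overlap, and the log2 fold change was -1.67 ± 0.11 (adjusted p = 7.2e-10, edgeR). Cdkn1b, the inhibitor p27 that holds Cdk2 in check, was at 20.3, 45.3, 43.5 and 25 CPM against 55.4, 76.9, 84.8 and 68.7 CPM (-1.14 ± 0.16). Klf2, a factor of resting and circulating T cells, was at 22.6, 32.2, 16.7 and 47.7 CPM against 75.9, 99.9, 30.5 and 36.8 CPM (-1.21 ± 0.25), and in Csf3r-/- library 2 it was higher in S-phase cells. In type 3 cells alone, a restriction chosen after the data were seen, Klf2 had a log2 fold change of -0.05 (adjusted p = 0.95, edgeR). The list of common gamma chain cytokine receptors also holds their kinases and signal transducers, the inhibitors Socs1, Socs3 and Cish, the kinase Pim1 and the survival protein Bcl2. Of its 16 genes tested 11 were lower and none higher, 6 of them among the 7 receptor chains tested, with Il2ra, the high-affinity chain for IL-2, at -1.29 ± 0.16.

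Type 3 genes were lower in S-phase cells, 23 of 26 with none higher (median log2 fold change -1.21), beside the larger part of type 1 cells among S-phase cells given above. Cxcr6, a chemokine receptor (chr9:123806475-123811760, plus strand), was at 636, 75.1, 1138 and 941 CPM in S-phase cells against 1171, 337, 2258 and 2381 CPM in resting cells, lower in each of the 4 libraries (-1.33 ± 0.14). Il17a was at 3.39, 0, 223 and 1148 CPM against 11.3, 8.81, 223 and 1358 CPM, with a log2 fold change of -0.36 ± 0.20 that did not pass the test (adjusted p = 0.18, edgeR). Within type 3 cells of the 3 libraries that had them in S phase, 19 of 25 type 3 genes were lower, beside 10.4% lower and 9.73% higher of the 9092 genes tested. There Cxcr6 changed by -0.75, and Il17a was higher by 0.43 (adjusted p = 0.018, edgeR), but the class was cut with genes of this list.

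Of 25 type 1 genes tested 3 were higher and 7 lower (median -0.08), beside 14.9% higher and 16.4% lower of all genes. Summed over the list, S-phase cells held 10188, 9465, 6551 and 7612 CPM and resting cells 13380, 16346, 6344 and 5585.5 CPM. The sum was thus lower in S-phase cells of both Csf3r+/+ libraries and higher in those of both Csf3r-/- libraries. Gzmk, a granzyme, was at 78.0, 8.34, 38.5 and 36.4 CPM in S-phase cells and at 27.9, 4.60, 4.96 and 5.36 CPM in resting cells, higher in each library (log2 fold change 1.85 ± 0.28, adjusted p = 5.3e-05, edgeR). Eomes, a T-box factor of cytotoxic cells, was at 19.2, 72.7, 45.2 and 45.4 CPM against 13.1, 35.2, 8.54 and 6.26 CPM (1.47 ± 0.28). Lag3, an inhibitory receptor of activated T cells, was also higher in each library (1.22 ± 0.28). Among cells of 3000 to 8000 UMIs neither passed the test, with Eomes at 0.15 and Lag3 at 0.049. Ifng was at 92.6, 89.4, 98.7 and 70.4 CPM against 208, 307, 46.9 and 76.5 CPM, lower in both Csf3r+/+ libraries and near level or higher in the Csf3r-/- libraries (-0.74 ± 0.29, adjusted p = 0.062, edgeR). Without Csf3r-/- library 1 it passed, at -1.23. Gzmb had -0.03 ± 0.23 and Tbx21, the type 1 master factor, 0.26 ± 0.21, neither past the test. Without Csf3r+/+ library 2 Gzmb passed, at 0.44 (adjusted p = 0.0047, edgeR).

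Within type 1 cells alone the picture of these genes was another. There 15.3% of the 9145 genes tested were higher and 16.3% lower, and of 25 type 1 genes 16 were lower and 3 higher (median -0.61), and 15 of 21 NK receptor genes were lower and none higher (median -0.83), against 5 of 22 lower over all cells (median -0.24). Ifng fell by 1.34 on the log2 scale, Gzmb by 0.70 and Klra7, an inhibitory Ly49 receptor, by 0.65, while Gzmk (1.17) and Eomes (0.92) stayed higher in S-phase cells. The class was cut with many of these genes, so these values are a description. Of the receptor complex itself, Cd3g was lower by 0.67 ± 0.08 and Cd3d by 0.49 ± 0.09 over all cells, and 4 of the 6 members tested were lower.

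**Figure D3:**
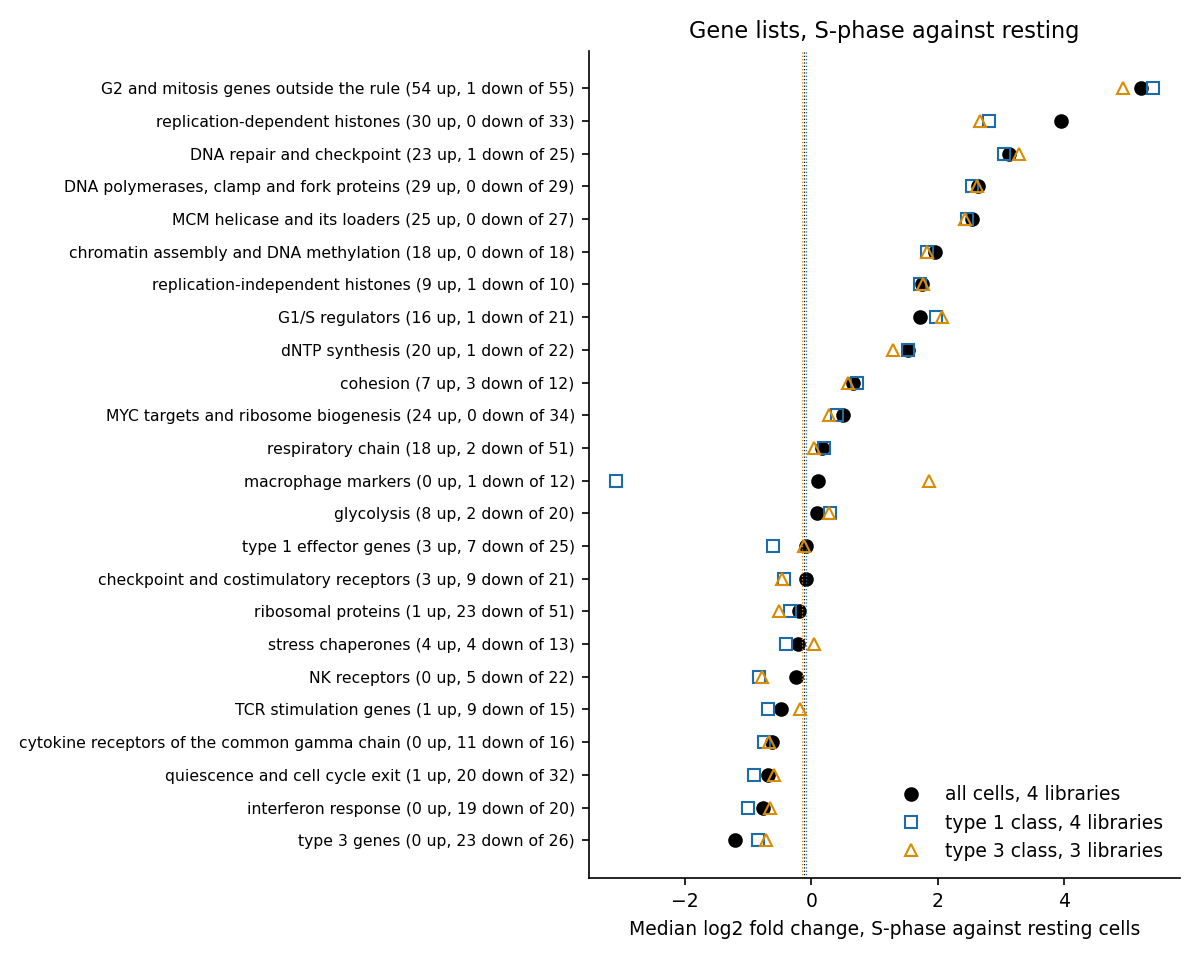
Median log2 fold change of S-phase against resting cells for each list with at least 10 genes tested, over all cells, within type 1 cells and within type 3 cells. The replication, histone and mitosis lists lie to the right in all 3, ribosomal proteins and interferon response genes to the left, and the type 1 and NK receptor lists lie further left within type 1 cells than over all cells.

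Growth and metabolic genes were higher in part. Of 34 MYC target and ribosome biogenesis genes tested, 24 were higher and none lower (median 0.49). Ranbp1, a regulator of nuclear transport, was at 976, 609, 822 and 757 CPM against 312, 237, 285 and 253 CPM (1.47 ± 0.09). Among 20 glycolysis genes 8 were higher and 2 lower, with Gapdh at 1.09 ± 0.09, and among 51 respiratory chain genes 18 were higher and 2 lower (median 0.18). Ribosomal proteins went the other way, with 23 of 51 lower and 1 higher (median -0.20), and their summed level was 148530, 223410, 146570 and 162230 CPM in S-phase cells against 177450, 228570, 162020 and 163740 CPM in resting cells. The sums of both states lay close together in the second library of each genotype.

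Interferon response genes were lower in S-phase cells, 19 of 20 with none higher (median -0.76), and 13 of these genes were lower by DESeq2, which called 9.38% of all genes lower. Ifit3, an antiviral interferon-induced gene (chr19:34583531-34588731, plus strand), was at 64.4, 57.2, 249 and 34.1 CPM in S-phase cells and at 385, 184, 475 and 64.8 CPM in resting cells. It was lower in each library, although Csf3r-/- library 1 was high in both states, and the log2 fold change was -1.65 ± 0.21 (adjusted p = 5.1e-06, edgeR). The change was -1.80 within type 1 cells and -1.72 within type 3 cells. Genes induced by T cell receptor stimulation were lower in 9 of 15 members tested and higher in 1, with the early factor Junb at -1.12 ± 0.12. Stress chaperones split, 4 higher and 4 lower of 13, with the mitochondrial Hspd1 at 0.67 ± 0.10 (0.14 among cells of 3000 to 8000 UMIs, where it did not pass) and the heat-induced Hspa1a at -0.84 ± 0.13.

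Transcripts of other cell types were present. Of S-phase cells 20.8%, 42.2%, 36.3% and 31.3% held at least 2 UMIs of macrophage or of MHC class II and B cell markers, against 26.1%, 23.1%, 25.1% and 31.7% of the shallower resting cells. The MHC class II and B cell list, with 10 of its 12 genes in the matrices and Cd74 the most abundant, summed to 48.6, 802, 947 and 1868 CPM in S-phase cells and to 55.1, 492, 586 and 973 CPM in resting cells. Of its 8 genes tested 4 were higher, among them H2-Ab1 (0.71 ± 0.14), which lay at -0.75 once cells with such UMIs were left out. H2-Ab1 is itself among the markers that decide which cells are left out, so that value is no separate check. Macrophage markers, all 12 seen and led by Apoe, summed to 91.5, 179, 164 and 2761 CPM against 306, 567, 427 and 1643 CPM, so that 1 library, Csf3r-/- library 2, carried them. Neutrophil markers were nearly absent, with 3 of 10 genes seen in S-phase cells and S100a8, S100a9 and Csf3r itself at 0. Of the fibroblast and sarcoma list 6 genes were at 0, Col1a1 and Pdgfra among them, and Thy1, which T cells also express, made up nearly all of its sum. Cd8b1 was at 12.4, 2.38, 31.8 and 31.8 CPM and Foxp3, the regulatory T cell factor, at 2.26, 0, 3.35 and 2.27 CPM. Leaving out the 127 S-phase cells with other-cell UMIs, and such resting cells, 2618 genes were called.

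Against G2/M cells, 384 of 5427 genes were higher in S-phase cells (7.08%) and 336 were lower (6.19%), in the same test. Both states were picked by the rule, and the median of all genes was -0.00089 on the log2 scale. Of 23 helicase and loader genes tested 16 were higher and 1 lower (median 1.70), of 27 polymerase, clamp and fork genes 25 were higher (median 1.55), and of 20 dNTP genes 14 were. Mcm5 was at 67.3, 50.5, 57.6 and 55.2 CPM in G2/M cells, below every S-phase value given above (2.20 ± 0.18). Slbp was at 180, 156, 207 and 172 CPM in G2/M cells, close to its resting level (1.89 ± 0.13). Cdk2, the kinase that cyclin E activates, was at 67.8, 63.2, 75.3 and 70.4 CPM in S-phase cells and at 13.5, 0, 5.76 and 13.8 CPM in G2/M cells (2.94 ± 0.40). Ung, which removes uracil from DNA, was higher by 3.53 ± 0.38.

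Of 54 G2 and mitosis genes tested 31 were lower in S-phase than in G2/M cells and 3 were higher (median -0.78). Cenpa, the centromeric histone, was at 134, 111, 162 and 159 CPM in S-phase cells and at 982, 712, 697 and 752 CPM in G2/M cells (-2.47 ± 0.13, adjusted p = 2.1e-16, edgeR). Aurka, a kinase of the spindle poles, was at 48.6, 7.15, 16.7 and 31.8 CPM against 194, 90.8, 46.1 and 117 CPM (-2.12 ± 0.25), with the lowest G2/M value just under the highest S-phase value. Top2a, in contrast, was at 543, 636, 409 and 800 CPM in G2/M cells, a range that takes in the S-phase values (-0.15 ± 0.12, adjusted p = 0.48, edgeR). Of 18 genes of the replication-dependent histone list tested 2 were higher in S-phase cells, Slbp and Hist1h3a, and 1 was lower, and the histones alone summed to 1431, 797, 639.6 and 1290.1 CPM in G2/M cells.

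The promoters of 4 of these genes are shown because each holds a word named for its phase, which most promoters of the genes called did not. They are those of Mcm5 and Cdk2, higher in S-phase cells, and of Cenpa and Aurka, higher in G2/M cells, each from 250 bases before to 50 after the RefSeq start (GRCm38.p6), in the direction of transcription. Capitals mark the E2F words TTTGGCGC, TTTCCCGC, TTTCGCGC and TTTGCCGC, searched on both strands, in the first pair, and the CHR word TTTGAA, also searched on both strands, in the second. In Mcm5 a pair of E2F words overlap.
Mcm5, chr8:75109259-75109558, plus strand: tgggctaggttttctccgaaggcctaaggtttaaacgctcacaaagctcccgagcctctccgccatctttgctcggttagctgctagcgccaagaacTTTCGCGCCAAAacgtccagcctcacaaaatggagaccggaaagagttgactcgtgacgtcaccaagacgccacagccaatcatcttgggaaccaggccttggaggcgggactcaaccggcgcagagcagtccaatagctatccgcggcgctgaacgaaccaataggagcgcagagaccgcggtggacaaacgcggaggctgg
Cdk2, chr10:128705002-128705301, minus strand: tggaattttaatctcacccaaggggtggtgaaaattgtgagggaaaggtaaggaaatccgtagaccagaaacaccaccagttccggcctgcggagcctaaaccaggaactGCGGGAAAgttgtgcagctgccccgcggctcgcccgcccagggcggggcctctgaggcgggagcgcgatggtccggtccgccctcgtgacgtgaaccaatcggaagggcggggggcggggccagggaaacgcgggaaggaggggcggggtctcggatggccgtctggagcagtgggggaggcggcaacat
Cenpa, chr5:30666636-30666935, plus strand: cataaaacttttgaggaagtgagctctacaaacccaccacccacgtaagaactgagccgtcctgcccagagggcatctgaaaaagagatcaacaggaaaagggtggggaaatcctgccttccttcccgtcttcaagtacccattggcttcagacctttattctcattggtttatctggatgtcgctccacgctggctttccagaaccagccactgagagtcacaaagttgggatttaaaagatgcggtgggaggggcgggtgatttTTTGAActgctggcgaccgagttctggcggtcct
Aurka, chr2:172370521-172370820, minus strand: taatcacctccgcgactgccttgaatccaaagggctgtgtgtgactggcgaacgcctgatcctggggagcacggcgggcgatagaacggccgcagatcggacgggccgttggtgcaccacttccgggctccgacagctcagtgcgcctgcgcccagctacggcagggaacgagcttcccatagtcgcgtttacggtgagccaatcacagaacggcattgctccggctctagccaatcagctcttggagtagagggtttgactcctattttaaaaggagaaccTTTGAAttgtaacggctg

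An E2F word was found in 2.26% of 32851 promoters. It was found in 38.5% of the promoters of the helicase and loader list (10 of 26), in 32.1% of the polymerase list (9 of 28), in 8 of 20 promoters of the G1/S regulators and in 1 of 20 of the dNTP list. Of promoters of genes higher in S-phase than in G2/M cells 14.0% held one (51 of 365), and of genes lower 2.48% did, beside 4.82% of the 5333 promoters of the genes tested in that comparison. The CHR word was found in 17.9% of all promoters, in 67.4% of those of the G2 and mitosis list (31 of 46), in 11.2% for genes higher in S-phase cells and in 28.3% for genes lower, beside 13.3% for the genes tested. CCAAT, searched on both strands, was in 37.4% of all promoters and in 71.7% of those of the G2 and mitosis list. A match is a description of the letters and not a bound site, and 296 of the 384 higher genes and 255 of the 336 lower genes were matched.

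Beyond the cycle, 12 of 20 interferon response genes were lower in S-phase than in G2/M cells and none was higher (median -0.66), but 1 was lower by DESeq2, which called 1.82% of all genes lower. Ifit3 had a log2 fold change of -1.0 ± 0.19 and Rtp4, another interferon-induced gene, -0.86 ± 0.15, and among cells of 3000 to 8000 UMIs neither passed (-0.48 and -0.39). Of 51 ribosomal protein genes 14 were higher and none lower, the reverse of their direction against resting cells, with Rps2 at 0.49 ± 0.08. MYC targets were higher in 18 of 32 and lower in none, and stress chaperones in 6 of 11. Transcripts of other cells were higher too. Of 5 MHC class II and B cell genes tested 4 were higher (median 2.67), with sums of 48.6, 802, 947 and 1868 CPM in S-phase cells against 64.6, 106, 438 and 117 CPM in G2/M cells, and macrophage markers summed to 159, 192, 254 and 179 CPM in G2/M cells, far below S-phase cells in Csf3r-/- library 2 alone. Once cells with such UMIs were left out, 4.15% of 4077 genes were higher and 3.16% lower, and 3 of 51 ribosomal protein genes, 8 of 30 MYC targets and 3 of 11 stress chaperones were higher and 5 of 16 interferon response genes lower. Gzmc, a granzyme, was at 104, 234, 10.0 and 182 CPM in S-phase cells and at 69.9, 5.05, 0 and 6.90 CPM in G2/M cells (2.11 ± 0.36). It was higher in each library, least so in Csf3r+/+ library 1. Gzmc ranged from 0.96 to 5.18 over the settings tried, and at 0.96 it no longer passed among cells of 3000 to 8000 UMIs. Cdkn1a, the inhibitor p21, was higher by 1.11 ± 0.24, and by 0.77, short of the threshold, without cells that held other-cell UMIs. G2/M cells came from 53, 27, 35 and 30 cells, so their levels are the less certain side of each comparison. By DESeq2 227 genes were called, and 298 by edgeR once cells with other-cell UMIs were left out.

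S-phase cells varied along the cycle. In 120 of them no M gene was seen and in 282 at least 1 was, and these groups were set against each other over libraries. Cells without M were slightly shallower, with medians of 5804, 8081, 5076 and 4553 UMIs against 6509, 8612, 5271 and 4966. Of 3957 genes 43 were higher (1.09%) and 105 lower (2.65%) in S-phase cells without M. Both counts moved between settings. By DESeq2 13 genes were higher and 52 lower, and with S of at least 6 these were 9 and 63. They were 17 and 77 without cells with other-cell UMIs, and 1 and 32 with no replicate block. Among cells of 3000 to 8000 UMIs they were 66 and 95, and without the filter on low counts 71 and 153. Without Csf3r+/+ library 1 they were 50 and 87. G2 and mitosis genes were lower in 38 of 45 tested, a set close to the split itself. Of the replication-dependent histone list 8 of 10 genes tested were lower and none higher, Slbp not being among the 8. Of the replication-independent list 7 of 10 were lower and none higher, and 3 of these 7, Hmgb1, Hmgb2 and Hmgn2, are high mobility group proteins and not histones. Hist1h2ae was at 23.4, 22.2, 19.5 and 47.7 CPM in cells without M and at 159, 137, 126 and 217 CPM in cells with M (-2.48 ± 0.24), and H2afx, the variant that marks DNA breaks, was lower by 1.76 ± 0.16. The groups did not overlap for Hist1h2ae.

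Polymerase and helicase genes differed little between these cells. Of 25 polymerase, clamp and fork genes tested none was called, with a median of -0.07 beside 0.034 over all genes, and of 19 helicase and loader genes 1 was lower. Pcna was at 337, 236, 241 and 185 CPM without M and at 304, 246, 241 and 198 CPM with M (0.05 ± 0.14, adjusted p = 0.92, edgeR). Of 20 dNTP genes 2 were lower without M, Tyms by 0.55 ± 0.13 and Rrm1 by 0.63 ± 0.15 on the log2 scale (adjusted p = 0.025 for both, edgeR), and of 17 chromatin assembly genes Asf1b was lower by 0.61. None of these 3 passed by DESeq2 or without cells with other-cell UMIs. Ung was the exception among repair genes, at 258, 147, 143 and 113 CPM without M against 65.5, 57.0, 83.3 and 25.7 CPM with M, higher in each library (1.56 ± 0.22). Ccnd2, a D-type cyclin of G1, was higher by 0.77 ± 0.13. Cells without M also held more Cxcr6 (0.72 ± 0.12) and Bst2 (0.93 ± 0.16), an interferon-induced membrane protein, and 5 of 16 interferon response genes were higher with none lower. Markers of other cells moved with the split. Macrophage markers summed to 112, 231, 163 and 6938 CPM in cells without M and to 84.9, 159.6, 164 and 191 CPM in cells with M, and 1 of 2 tested was higher. The MHC class II and B cell list summed to 37.5, 2649, 65.1 and 4659 CPM against 52.1, 125.4, 1252 and 150.5 CPM, and 2 of 4 tested were higher. Once cells with such UMIs were left out Cxcr6 was at 0.58 and Bst2 at 0.93, both past the test. In that setting 94 genes were called, 90 of them also called over all S-phase cells. Why the other calls were lost was not tested. Over all settings tried Cxcr6 ranged from 0.417 to 0.875 and Bst2 from 0.691 to 1.22, and each fell short of the threshold in at least 1. Ung and Ccnd2 also fell short in at least 1.

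**Figure D4:**
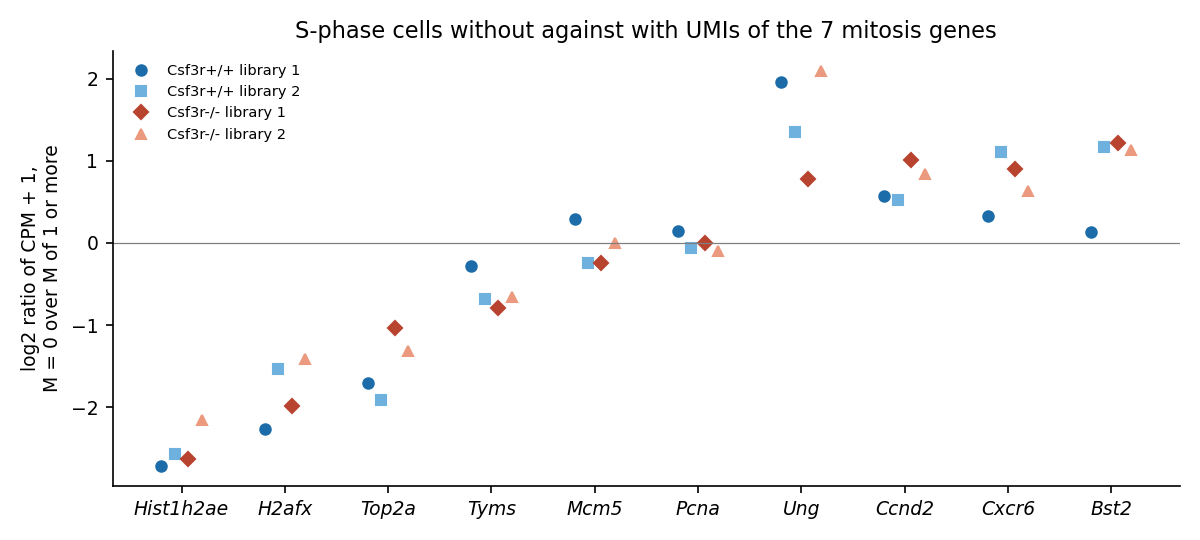
Log2 ratio of CPM (pseudocount 1) of 10 genes in S-phase cells without a UMI of the 7 M genes over those with one, 1 point for each of the 4 libraries. Hist1h2ae, H2afx and Top2a are lower without M, Ung and Ccnd2 higher, and Pcna and Mcm5 differ little.

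Between genotypes, no gene was called in S-phase cells (0% of 6178 tested) by edgeR, with 521 at an unadjusted p under 0.05, and 55 were called by DESeq2. The count of calls moved when a library was left out, but such fits have 1 library in a genotype and are not read here. Icos, a costimulatory receptor, was at 73.4 and 89.4 CPM in S-phase cells of the Csf3r+/+ libraries and at 383 and 464 CPM in those of the Csf3r-/- libraries, without overlap (log2 fold change 2.31 ± 0.27, adjusted p = 0.075 by edgeR and 3.8e-05 by DESeq2). The resting cells of the same libraries were ordered alike, at 184 and 232 against 667 and 1168 CPM. Isg15, an interferon-induced ubiquitin-like protein, was at 210 and 116 against 646 and 261 CPM (1.44 ± 0.43, adjusted p = 0.37, edgeR). Its log2 fold change ranged from 0.69 to 1.905 over the settings tried. The median of helicase and loader genes was -0.04 and that of polymerase, clamp and fork genes -0.06, beside 0.010 over all genes. Type 3 genes had a median of 1.37, interferon response genes of 0.99 and NK receptor genes of -0.80, with none called. The type 3 list summed to 3704, 640, 5487 and 5708 CPM in S-phase cells, lowest in Csf3r+/+ library 2. Its member Cxcr6, at 1.57, ranged from 0.75 to 3.59 over the settings tried. Summed over the interferon list, S-phase cells held 1845, 1074, 4304 and 1475 CPM, high in Csf3r-/- library 1 alone, with Csf3r-/- library 2 between the Csf3r+/+ libraries.

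Whether the S-phase against resting difference itself differed between genotypes was tested as an interaction, and 77 of 10366 genes were called (0.743%), 74 of them with a larger S-phase minus resting difference in Csf3r-/- mice. None of the replication, dNTP or histone lists held a called gene, and 1 of 55 G2 and mitosis genes did. Type 1 genes held 12 of 25 tested, NK receptors 8 of 22, the quiescence list 10 of 32, with Fos, Jun, Dusp1 and Zfp36 among the 10, interferon response genes 7 of 20 and TCR stimulation genes 4 of 15. Macrophage markers held 5 of 12, with a median of 2.14. Without cells with other-cell UMIs 95 genes were called, of which 55 were among the 77. Why the rest of the 77 were not called there was not tested. By DESeq2 16 genes were called (0.154%), among them 4 type 1 genes, 4 NK receptor genes, 3 of the quiescence list and 2 interferon response genes, and no TCR stimulation gene or macrophage marker. Ifitm3, an interferon-induced membrane protein, was at 41.8 and 67.9 CPM in S-phase cells against 161 and 200 CPM in resting cells of Csf3r+/+ mice, and at 156 and 141 against 99.3 and 82.2 CPM in Csf3r-/- mice. It was lower in S-phase cells of both Csf3r+/+ libraries and higher in those of both Csf3r-/- libraries (difference of log2 fold changes 2.50 ± 0.23, adjusted p = 1.8e-07, edgeR). Klra9, a Ly49 receptor gene with near-identical relatives that could share its reads, showed the same turn, at 48.6 and 63.2 against 153 and 251 CPM and at 70.3 and 100 against 51.4 and 79.1 CPM (2.3 ± 0.25). Ifng differed by 2.08 ± 0.29 and Serpinb9, the inhibitor of granzyme B, by 1.75 ± 0.24.

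The mixture of classes also differed between genotypes, and its part in these differences was not tested. Among cells with at least 1500 UMIs, type 1 cells made up 60.0% and 100% of S-phase cells in the Csf3r+/+ libraries. They made up 50.4% and 91.8% of all such cells there. In the Csf3r-/- libraries these shares were 41.2% and 58.2% against 23.6% and 20.8%. Within type 1 cells, a restriction chosen after the data were seen, 5 genes were called and 2 of these were among the 77. Ifitm3 remained at 2.09 (adjusted p = 0.0039, edgeR), with log2 ratios of S-phase to resting CPM of -3.93 and -1.61 in the Csf3r+/+ libraries, the first on 9 UMIs, and of 0.49 and -1.08 in the Csf3r-/- libraries. The other genes named were smaller there, Klra9 at 1.17, Ifng at 1.12, Serpinb9 at 0.74 and Isg15 at 0.79, against 1.17 for Isg15 over all cells. Fewer cells entered that fit than the one over all cells. The class was cut with Ifng and other type 1 genes, so the values within type 1 cells are a description. The interaction called 166 genes over all cells without Csf3r+/+ library 1, 91 without Csf3r+/+ library 2 and 16 without Csf3r-/- library 2.

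**Figure D5:**
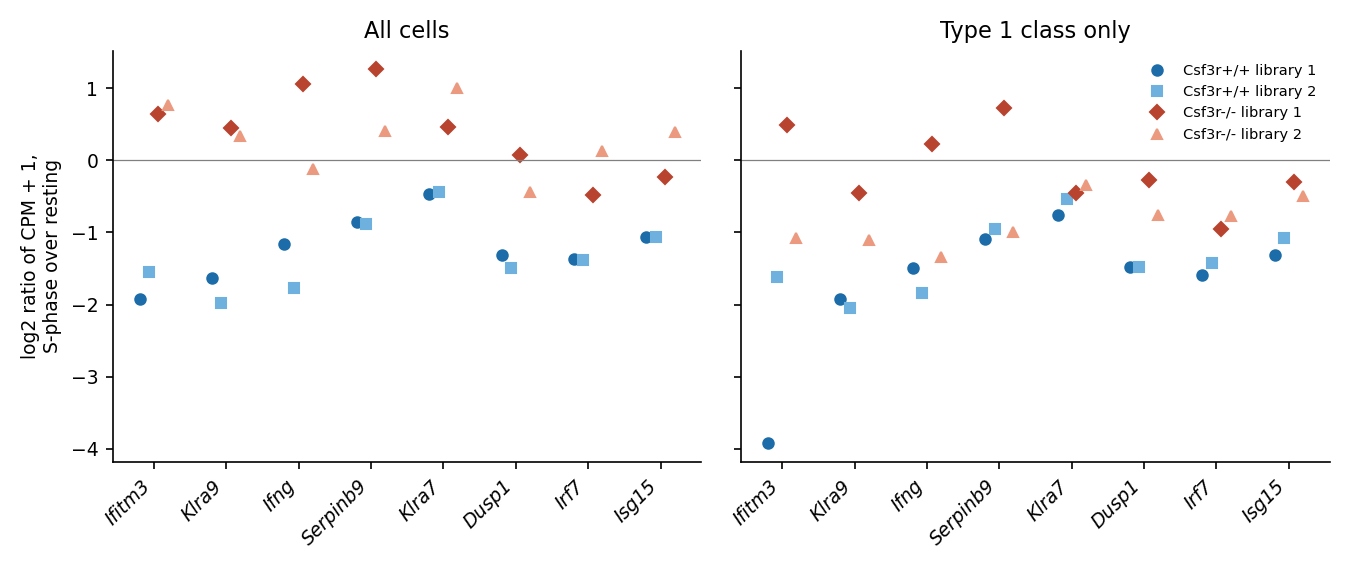
Log2 ratio of S-phase to resting CPM (pseudocount 1) of 8 genes in each of the 4 libraries, over all cells and within type 1 cells. Over all cells Ifitm3 and Klra9 are negative in both Csf3r+/+ libraries and positive in both Csf3r-/- libraries, and within type 1 cells the genotypes lie closer for Klra9, Serpinb9 and Klra7. Ifng and Klra7 are among the genes that define type 1 cells.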

How the data were processed

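Single-cell RNA sequencing of sorted UTCαβ was analysed from raw UMI counts as deposited by the authors, 1 matrix of 27998 genes for each genotype, in which Cell Ranger had aligned reads to mm10, counted them per gene and barcode and pooled both libraries of a genotype. Whether that step equalised depth between the libraries was not given in the sources used here, and the UMI medians and the cells that reach a UMI limit depend on it. The submitters' notes also name R 3.4.4, Seurat 2.3.4 and bcl2fastq. The number after each barcode separated the libraries, and 0 columns were left without one. Of 32525 barcodes deposited, 21372 had a Cd3e UMI, fewer than the study kept by that condition, and 21342 were within all limits. S-phase cells held 885158, 838907, 597596 and 440091 UMIs in all, and a gene at 10 CPM thus rests on under 10 UMIs in each library.

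UMI counts were summed per library and state and tested with edgeR 4.0.16 (R 4.3.3; TMM factors, filterByExpr, quasi-likelihood F test), with Benjamini-Hochberg adjustment over all genes tested and a threshold of 0.05, library being a block except between genotypes. Shares of cells were compared over libraries with exact permutation tests. Tables, thinning (seed 42) and figures were made with Python 3.11.15, numpy 2.4.6, scipy 1.17.1 and pandas 2.3.3. Other settings tried were DESeq2 1.42.0, counts without TMM factors or without the filter on low counts, S of at least 3 or 6, 3000 to 8000 UMIs, the study's upper limits on genes (3500 in Csf3r+/+ and 4000 in Csf3r-/-, which 7 S-phase cells exceed), leaving out cells with at least 2 UMIs of other-cell markers, barcodes without Cd3e, other blocks and each library left out. Restriction to type 1 or type 3 cells was added after the data were seen. No doublet caller was run. Simulated counts held 200 genes changed by 2 on the log2 scale, at a dispersion of 0.05. There edgeR recovered 84.5% for S-phase against resting cells and 76.5% between genotypes, and DESeq2 80.5% and 41.5%. False calls made up 2.31% and 6.13% of calls by edgeR, and 2.42% and 0% by DESeq2. The simulation drew every library from 1 pooled profile and changed well expressed genes only. In the data the fitted common dispersion was 0.0114 for S-phase against resting cells and 0.0602 between genotypes. These rates thus need not hold for the data.

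The members, the 30 gene lists and the comparisons were chosen with earlier results of these data known. From each list the rule named up to 4 members with the largest called change of the same sign in all libraries, or the 2 most abundant where fewer than 2 passed, and outside the lists the 8 largest called changes in each direction with at least 30 CPM, beside a fixed set of cycle and T cell genes and the 12 rule genes. Some were left out for length, a few genes are not reported here, and Slbp against resting cells and the abundant or absent markers of other cell types were named after their values were seen. Gene places are those of GENCODE vM21, in which 27645 genes of the matrices had a place, and promoters those of RefSeq (GRCm38.p6).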

Additional observations from a re-analysis of the deposited data

Results flagged for a closer look

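The difference between S-phase and resting cells differed between genotypes, by edgeR's interaction test with Benjamini-Hochberg adjustment, for the genes given here, which are a part of the 77 called. Values are the log2 fold change in Csf3r-/- minus that in Csf3r+/+ libraries. Interferon-induced genes were Ifitm3 at 2.50, Ifit3 at 1.31, Irf7 at 1.19 and Isg15 at 1.17. Genes of type 1 cells were Ifng at 2.08, Eomes at 1.75, Serpinb9 at 1.75, Gzmk at 1.60 and Gzmb at 1.29, and the NK receptor genes Klra9 and Klra7 stood at 2.3 and 1.25. Of genes induced early on stimulation, Dusp1 was at 1.30, Fos at 1.15, Zfp36 at 1.08, Jun at 0.76 and Junb at 0.70. Klf2 was at 1.60 and Bcl2 at 0.84. Within type 1 cells Ifitm3 alone of these passed, at 2.09. That class was cut with Ifng, Eomes, Gzmk, Gzmb and Klra7 among its genes. Gzmk, Gzmb, Eomes, Ifit3, Jun, Junb, Zfp36 and Bcl2 did not pass by DESeq2 or without either Csf3r-/- library. Klf2 did not pass by DESeq2 or without Csf3r-/- library 2, Irf7, Isg15 and Klra7 did not pass without Csf3r-/- library 2, and Ifng and Dusp1 did not pass without Csf3r-/- library 1. Apoe, a macrophage transcript, was at 3.50 over all cells and at -0.55 once cells with other-cell UMIs were left out, and it did not pass by DESeq2 or without Csf3r-/- library 2. Apoe is itself among the markers that decide which cells are left out, so the value without them is no separate check. Its S-phase UMIs numbered 0, 20, 6 and 543, nearly all of them in Csf3r-/- library 2.

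Of cell cycle genes, Cdkn2c, an inhibitor of the D-type cyclin kinases, was at 67.8 and 48.9 CPM in S-phase cells of the Csf3r+/+ libraries against 30.3 and 14.5 CPM in resting cells, and at 16.7 and 11.4 against 31.1 and 30.2 CPM in the Csf3r-/- libraries. It was higher in S-phase cells of both Csf3r+/+ libraries and lower in those of both Csf3r-/- libraries, a difference of -2.44 (adjusted p = 0.00062, edgeR). It did not pass within type 1 cells, at -1.53 (adjusted p = 0.77, edgeR), or without Csf3r-/- library 2, at -2.28. The Csf3r-/- values rest on 10 and 5 UMIs. Prc1, which bundles the spindle midzone, differed by -1.86, with 99.4, 60.8, 109 and 109 CPM in S-phase cells and 1.61, 0.969, 7.48 and 5.91 CPM in resting cells, and the genotypes did not overlap in either state. Prc1 did not pass by DESeq2, at 3000 to 8000 UMIs (-1.35), within type 1 cells (-0.88) or without either Csf3r-/- library.

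Outside the cells compared, 89 barcodes met the S-phase rule and the limits but had no UMI of Cd3e, 23, 28, 22 and 16 in the 4 libraries.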

How the results depend on the processing

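Of 1760 values of the genes named, over 132 genes and comparisons, 1552 kept direction and side of the threshold, 160 fell short of it, 20 passed it anew and 28 turned. For S-phase against resting cells the count of calls was 1828 within type 3 cells and 1214 with no replicate block, and ranged from 2299 to 2802 with each library left out. For S-phase against G2/M cells it was 227 by DESeq2, 433 among cells of 3000 to 8000 UMIs, 298 without cells with other-cell UMIs, 471 within type 1 cells and 171 with no replicate block, and ranged from 392 (without Csf3r+/+ library 1) to 565 with each library left out. For S-phase cells without and with M it was 65 by DESeq2, 224 without a filter on low counts, 72 with S of at least 6, 94 without cells with other-cell UMIs and 33 with no replicate block, and ranged from 95 (without Csf3r+/+ library 2) to 137. Between genotypes it was 55 by DESeq2, 295 without the filter, 42 without TMM factors, 1 with S of at least 6, 2 at 3000 to 8000 UMIs and 7 without cells with other-cell UMIs, and ranged from 0 to 233. The interaction called 16 by DESeq2, 146 without the filter, 133 with S of at least 6, 41 at 3000 to 8000 UMIs and 5 within type 1 cells, and ranged from 16 to 166. The cause of these shifts was not tested. With the number after the barcode as a replicate block, 111 genes were called between genotypes and 157 in the interaction, and the share difference stayed at -1.42 percentage points. Deviations of same-numbered libraries from the mean of their genotype correlated at 0.219 over 6191 genes. With 2 libraries a genotype both numbers give the same value, so this is 1 comparison. The number is not tied to an animal, so the pairing is not one of the design. The difference in share between genotypes turned to 1.38 percentage points at 3000 to 8000 UMIs and ranged from -3.01 to 0.170 with each library left out. The mean difference between type 1 and type 3 cells kept its direction in all alternatives. At 3000 to 8000 UMIs the difference turned in Csf3r+/+ library 1, to -2.02 percentage points.

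Against resting cells Gzmb turned to 0.015 by DESeq2, 0.029 without TMM factors, 0.093 at 3000 to 8000 UMIs, 0.22 without cells with other-cell UMIs, and 0.40 within type 3 cells, and ranged from -0.28 to 0.44 (without Csf3r+/+ library 2, where it passed) with each library left out. H2-Ab1 turned to -1.98 at 3000 to 8000 UMIs, -0.035 under the study's limits on genes and -0.75 without cells with other-cell UMIs. Within type 3 cells Ifng turned to 0.38 and Il17a to 0.43, and Il17a lay at 0.11 at 3000 to 8000 UMIs. Within type 1 cells Tbx21 turned to -0.32. Klra7, at 0.01 over all cells, lay at -0.038 without the filter, -0.021 with S of at least 6, -0.30 at 3000 to 8000 UMIs, -0.65 within type 1 cells, -3.23 within type 3 cells, and between -0.24 and 0.24 with each library left out, and -0.16 with no replicate block. In the split by M, Pcna lay at -0.0128 without the filter and between -0.015 and 0.072 with each library left out. In the interaction Apoe turned to -0.091 with S of at least 6, -0.42 at 3000 to 8000 UMIs, -0.55 without cells with other-cell UMIs and -1.08 within type 1 cells, where Bcl2 turned to -0.075. Genes of low level rest on few UMIs, and 145 G2/M cells limit the comparison of S-phase with G2/M cells.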

Other observations

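Genes outside every list were named by size. Against resting cells, the largest called rises at 30 CPM or more included Pbk, a mitotic kinase (log2 fold change 8.80 ± 0.29), and Neil3, a glycosylase of single-stranded and crosslinked DNA (7.13 ± 0.37). The largest falls included Slfn5 (-2.40 ± 0.31), an interferon-responsive Schlafen gene, Lpar6 (-2.28 ± 0.21), a receptor for lysophosphatidic acid, and Tcp11l2 (-2.19 ± 0.24).

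Against G2/M cells, 3 of the genes so named were these. Syce2, a part of the synaptonemal complex, was at 128, 69.1, 119 and 125 CPM in S-phase cells and at 16.1, 10.1, 5.76 and 0 CPM in G2/M cells (log2 fold change 3.47 ± 0.35, adjusted p = 2.4e-09, edgeR), without overlap between the states. Psmc3ip, which helps the recombinases of meiosis, had 3.10 ± 0.44 and Zcwpw1, a reader of histone marks, 2.00 ± 0.44. Zcwpw1 did not pass by DESeq2, within type 1 cells (1.47) or without Csf3r+/+ library 1 (1.61).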
